A study of Bos taurus with 96 samples.

Results

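Gene expression in the intramuscular (marbling) fat of Wagyu x Angus steers was compared with that of Angus and Hereford steers. The study profiled 6 tissues on 96 one-colour Agilent bovine arrays, and 12 of those arrays carry intramuscular fat (IMF) dissected out of the longissimus dorsi muscle (LD). Of these 12, the 4 arrays labelled as the Wagyu x Angus cross were set against the 8 labelled Angus or Hereford, which are 4 of each breed. All 12 belong to the pasture feeding group, from steers that spent 259 d in a feedlot before slaughter. The labels give those 259 days as the age, whereas the methods give an age of 26 months. The LD arrays, used here to mark muscle, hold 24 of pasture-fed and 12 of supplement-fed steers, and the methods take further LD samples from an earlier slaughter. The arrays lie on 3 slides, called S08, S09 and S18 here. Slide S08 holds 3 Wagyu x Angus arrays and 1 Angus array, slide S09 holds 3 Hereford arrays and 1 Angus array, and slide S18 holds 1 Wagyu x Angus, 2 Angus and 1 Hereford array. The labels do not tie an array to a steer, so p-values measure the spread between arrays.

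Marbling fat is made of adipocytes that lie between the bundles of muscle fibres, and Japanese Wagyu cattle are known for depositing much of it. Adipocytes fill their droplets with fatty acids that they take up from the blood or make themselves, and in ruminants adipose tissue is the main site of fatty acid synthesis. Marbling fat cannot be dissected free of muscle fibres, and a dissected sample also holds blood vessels with smooth muscle in their walls, nerves and matrix. In such bulk samples fewer cells of a type and less RNA per cell cannot be told apart.

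The amount of skeletal muscle RNA in each array was read from 2719 probes that were more than 4-fold higher in LD than in subcutaneous rump fat (SC). The mean of an array over these probes, on the scale of log2 signal minus the 75th percentile of the array, is called the muscle score. It averaged 0.83 (0.47 to 1.01) on the 36 LD arrays and -2.98 (-3.15 to -2.86) on the 12 SC arrays. The 4 Wagyu x Angus arrays of IMF had scores of -1.41, 0.22 and -0.56 on slide S08 and -1.05 on slide S18. The Angus arrays had -1.09 on slide S08, -0.09 on slide S09, and -0.02 and 0.04 on slide S18. The Hereford arrays had -1.29, -0.73 and -0.68 on slide S09 and -0.05 on slide S18. Every IMF array therefore stood between SC and LD, and the array with the most and the array with the least muscle signal were both Wagyu x Angus. The mean was -0.70 ± 0.70 (SD, n = 4) in Wagyu x Angus and -0.49 ± 0.53 (SD, n = 8) in the others, a difference of -0.21 that is smaller than the spread in either group. It was also -0.21 with muscle probes drawn from the pasture LD arrays alone. Its direction was not the same on the slides that hold both groups: the difference was 0.51 from the single Angus array on slide S08 and -1.04 from the mean of the 3 others on slide S18.

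**Figure D1:**
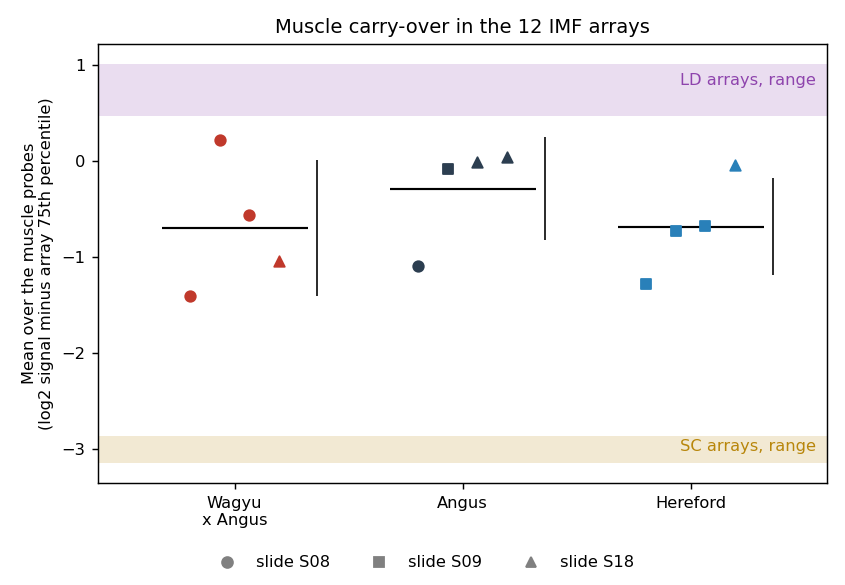
Muscle score of each IMF array by breed, as the mean over 2719 probes of log2 signal minus the array's 75th percentile. Points are arrays with the slide given by the marker, black lines are breed means, vertical bars are SD, and the bands span the 12 SC and 36 LD arrays. The 4 Wagyu x Angus arrays run from -1.41 to 0.22 and overlap both other breeds.

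CELA1, which encodes a chymotrypsin-like elastase that cleaves elastin, was lower in Wagyu x Angus IMF, and it was the single probe of 34227 tested to pass an adjusted p of 0.05 in limma. That is 0.00292% of the probes. Its log2 level was -5.27, -4.95 and -5.19 on the Wagyu x Angus arrays of slide S08 and -5.25 on that of slide S18. On the 8 other arrays it ran from -4.15 to -3.51 with a median of -3.80, so that the groups did not overlap and every Wagyu x Angus array was below every other array. The difference was -1.36 (SE 0.15, limma adjusted p = 0.0218), which is 2.56-fold lower. It was -1.32 against Angus alone and -1.39 against Hereford alone. Within slides it was -1.14 on S08 and -1.49 on S18. All 12 arrays read this probe well above background, but it is 1 of 2 probes named CELA1, and the other differed by -0.04 (SE 0.24, limma adjusted p = 0.973). With the muscle score in the fit the difference of the first probe was -1.33 (limma adjusted p = 0.0360). The call was lost, with the same sign and among other settings, under normexp background correction, where the difference was -0.45 (limma adjusted p = 0.288), with the deposited log2 values as they are (0.324) or scaled (0.162), with the methods' equal-variance test (adjusted p = 0.0732), with the spread of 60 fat arrays, with slide as a fixed block and in 7 of the 12 fits that left out an array.

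Beyond this probe, 3950 probes (11.5%) had an unadjusted limma p under 0.05, with 1442 higher (4.21%) and 2508 lower (7.33%) in Wagyu x Angus. The median difference over all probes was -0.01, and 48.24% of probes were higher. Of the 2719 muscle probes 172 had an unadjusted p under 0.05, 16 of them higher and 156 lower, and their median difference was -0.22. The arrays of the 2 groups did not overlap for 356 probes (1.04%), of which 88 were higher and 268 lower in Wagyu x Angus.

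One array had a strong hold on these counts. Without the Angus array of slide S08, 699 probes (2.04%) passed an adjusted p of 0.05 in limma, 144 higher and 555 lower, and CELA1 was among them. No other fit that left out an array gave as many. The Angus array of slide S08 had the lowest muscle score of the Angus arrays. It also had the highest mean level of the fatty acid synthesis genes and of the adipocyte markers among the 8 Angus and Hereford arrays, and the lowest of the smooth muscle genes. Leaving it out therefore widens the gaps of these lists, and calls gained that way are not further support. This array is the only one of these breeds on slide S08, so its slide and its own tissue cannot be told apart.

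The genes named next are the 12 higher and 12 lower with the smallest p among genes whose groups did not overlap. CELA1 alone passed, and the limma adjusted p of the others was between 0.263 and 0.268. Without the Angus array of slide S08, 20 of the 24 passed, 8 higher and all 12 lower, beside 2.04% of all probes. The 24 were chosen for a small p on these same arrays, so this count is not further support. None of the 24 is a muscle probe.

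POSTN encodes periostin, a matrix protein made by fibroblasts of tendon, bone and remodelling tissue. Its log2 level was -2.93, -2.68 and -2.64 on the Wagyu x Angus arrays of slide S08 and -2.88 on that of slide S18. The Angus arrays ran from -2.22 to -1.33 and the Hereford arrays from -1.11 to -0.50, so that the 3 breeds formed a sequence without overlap. The difference from the 8 others was -1.54 (SE 0.28, limma adjusted p = 0.263), or 2.91-fold. The 2 other POSTN probes gave -1.51 and -1.38, also with no overlap between the groups. Within slides the difference was -0.53 on S08 and -1.45 on S18, and with slide as a fixed block it was -0.99. Against Hereford alone POSTN was lower by a log2 difference of -1.99 (SE 0.21, limma adjusted p = 0.0110), whereas against Angus it was -1.09 (limma adjusted p = 0.756). The call against Hereford was lost, among other settings, with slide as a fixed block (limma adjusted p = 0.270) and without the first Hereford array of slide S09 (0.0583).

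PRKG1 encodes the kinase through which cyclic GMP relaxes smooth muscle. Its log2 level was -4.41, -3.76 and -3.85 on slide S08 and -4.09 on slide S18 in Wagyu x Angus, and -3.51 to -2.72 with a median of -3.18 in the others. The difference was -0.91 (SE 0.16), and all 3 other PRKG1 probes had the same sign. The rest of the lower genes were TMEM89 (-1.39), C17H12orf43 (-0.92), AMBP, the precursor of the plasma proteins alpha-1-microglobulin and bikunin (-0.89), PLK4, the kinase of centriole duplication (-0.81), AGTRAP, which binds the angiotensin receptor (-0.76), KIF5C, a kinesin motor (-0.73), MGC137030 (-0.68), PCDH1, a protocadherin (-0.65), and WWOX, an oxidoreductase (-0.59). For PLK4 and AGTRAP the other probes of the gene had the opposite sign, and for WWOX 1 of 3 other probes had the same sign. TMEM89, PLK4, KIF5C, MGC137030, PCDH1 and WWOX were dim like CELA1, with no level above -3.05.

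On the higher side, C1RL, a relative of the complement protease C1r, had log2 levels of -2.48, -2.94 and -2.44 on slide S08 and -2.53 on slide S18 in Wagyu x Angus. The other arrays ran from -4.59 to -3.20 with a median of -3.79. The groups were 1.21 apart (SE 0.24, limma adjusted p = 0.263), or 2.31-fold. PLA2G2D1, a secreted phospholipase A2, had -3.21, -3.24 and -2.29 on slide S08 and -2.25 on slide S18, against -4.80 to -3.34 in the others, a difference of 1.47 (SE 0.34). BAIAP2L1, an adaptor between membranes and actin, differed by 2.21 (SE 0.50). It was well above background on all 4 Wagyu x Angus arrays and on 6 of the 8 others, so that the size of this difference rests in part on values in the background.

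C2orf72 differed by 1.29, SPAG5, a mitotic spindle protein, by 1.01, TNFRSF6B, a decoy receptor for Fas ligand, by 0.87, THNSL2 by 0.82 and ZAR1L by 0.65. TPD52 (0.44), the small GTPase RAB4A of endosome recycling (0.42) and the cargo receptor SURF4 (0.39) had the narrowest gaps. The other probe of ZAR1L had the opposite sign. SPAG5 and ZAR1L were dim too, with highest levels of -3.51 and -5.32.

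**Figure D2:**
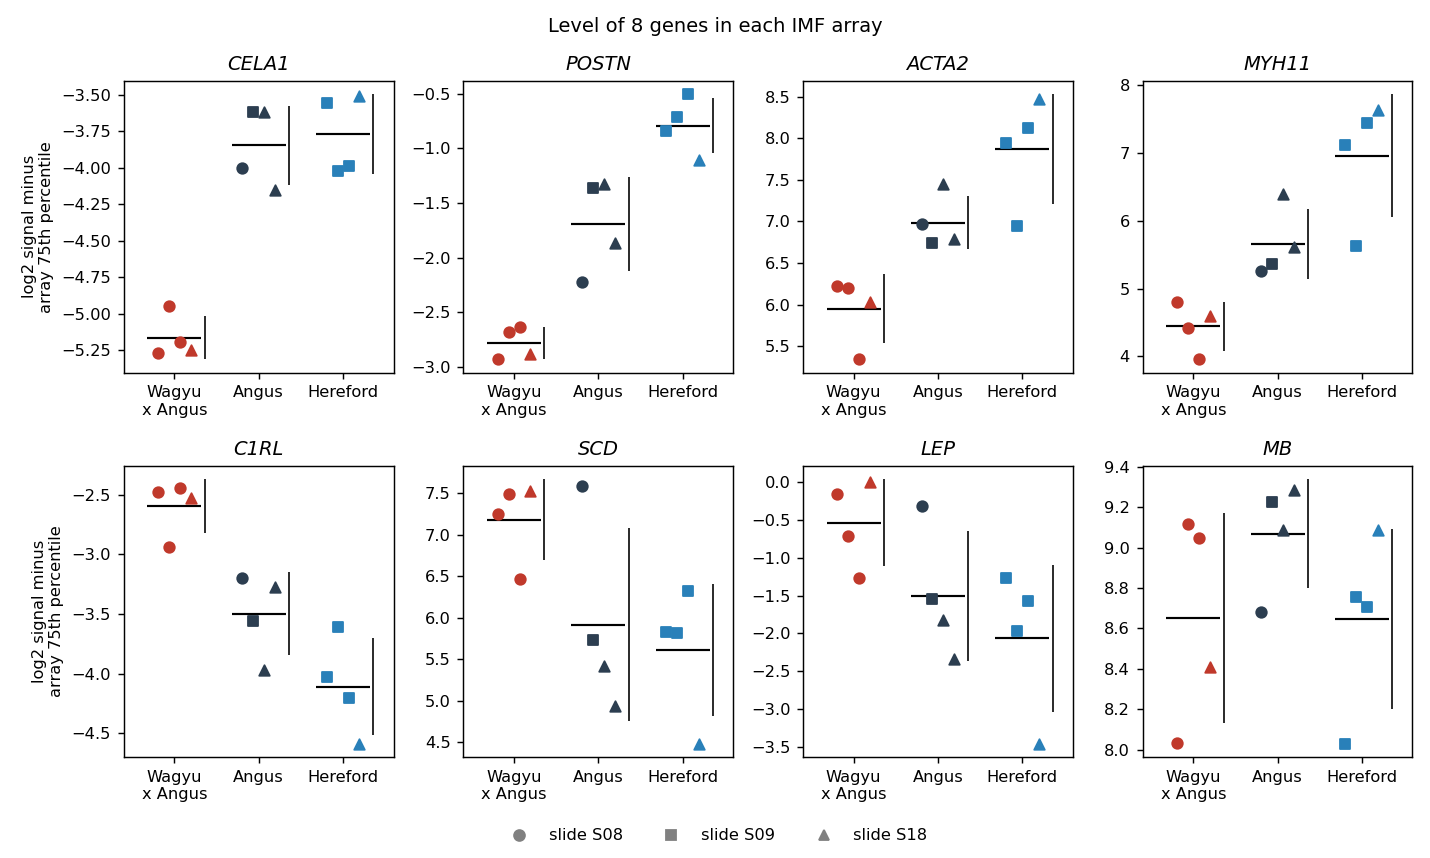
Log2 signal minus the array's 75th percentile of 8 genes in each of the 12 IMF arrays by breed. Points are arrays with the slide given by the marker, black lines are breed means and vertical bars are SD. CELA1, POSTN, ACTA2, MYH11 and C1RL show Wagyu x Angus arrays apart from all others, whereas the Angus array of slide S08 lies just above the Wagyu x Angus arrays for SCD (7.58 against at most 7.53) and among them for LEP, and for MB, a muscle gene, all breeds overlap.

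The breeds were then set apart in 1 fit with 3 groups. Against Angus no probe (0%) passed in limma, with 2210 at an unadjusted p under 0.05 and a smallest adjusted p of 0.297. Against Hereford 178 probes (0.52%) passed, 58 higher and 120 lower, with 5696 at an unadjusted p under 0.05. With the muscle score in the fit 1895 passed, 930 of them higher. The Angus mean lay between the Wagyu x Angus and the Hereford mean for 168 of the 178. It lay beyond the Wagyu x Angus mean for the other 10. The 178 were chosen for a clear gap between the Wagyu x Angus and Hereford means. Such a gap by itself favours an Angus mean between them. No share over all probes is given beside it, so this count does not show a graded order of the breeds. Only 6 probes passed between Angus and Hereford. The difference between the contrast with Hereford and the contrast with Angus is that contrast of Angus with Hereford. The 178 calls depended on single arrays: without the Hereford array of slide S09 at the first position 1 probe passed, and without the one at the second position 681 did. Leaving out a Wagyu x Angus array gave between 9 and 31 calls. No Wagyu x Angus array lies on slide S09, which holds 3 of the 4 Hereford arrays, and with slide as a block no probe passed (3063 at an unadjusted p under 0.05).

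Among the 178, the following genes were picked after their values were seen, 3 in each direction from the 12 named genes with the smallest p, and genes with a smaller p were passed over. GNPDA1, which turns glucosamine 6-phosphate into fructose 6-phosphate, was higher in Wagyu x Angus, at -0.63, -0.50 and -0.48 on slide S08 and -0.65 on slide S18 against -2.26 to -1.90 in Hereford. The Angus arrays lay between, at -1.15 to -0.72. The difference from Hereford was 1.44 (SE 0.13, limma adjusted p = 0.00862), or 2.72-fold. NCR1, an activating receptor of natural killer cells, was higher by 2.35 (SE 0.33), and RBM47, an RNA-binding protein, by 1.43 (SE 0.20), both at a limma adjusted p of 0.0240.

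COL4A6, a collagen chain of basement membranes, was lower. Its level was -0.80, -0.75 and -0.89 on slide S08 and -0.83 on slide S18, against 0.32 to 1.79 in Hereford and -0.34 to 0.59 in Angus. The difference from Hereford was -2.22 (SE 0.31, limma adjusted p = 0.0240). RYR2, a calcium release channel best known from heart muscle, was lower with a difference of -2.21 (SE 0.30), and FBXL22, an F-box protein of muscle, with one of -2.17 (SE 0.34).

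Gene lists were read next, each by how many of its measured genes stood higher or lower and by their median difference. Over all probes that median was -0.01, with 48.24% higher, 11.5% at an unadjusted limma p under 0.05 and 1.04% without overlap between the groups. Contractile genes of smooth muscle stood out on the lower side. All 11 were lower in Wagyu x Angus, with a median of -1.20 (-1.86 to -0.41), 7 had an unadjusted limma p under 0.05 (11.5% of all probes did), the groups did not overlap for 5 (1.04% of all probes), and none passed after adjustment. The mean level of the list was 4.20 ± 0.20 (SD, n = 4) in Wagyu x Angus, 4.96 ± 0.36 (SD, n = 4) in Angus and 5.71 ± 0.65 (SD, n = 4) in Hereford. The highest Wagyu x Angus array stood at 4.47 and the lowest of the others at 4.59, so the groups were apart but close at their edges.

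ACTA2, the actin of smooth muscle, had log2 levels of 6.23, 6.20 and 5.34 on slide S08 and 6.03 on slide S18 in Wagyu x Angus. It ran from 6.74 to 7.44 in Angus and from 6.94 to 8.47 in Hereford. The difference from the 8 others was -1.48 (SE 0.34, limma adjusted p = 0.268), or 2.79-fold. MYH11, the myosin heavy chain of smooth muscle, had 4.80, 4.42, 3.96 and 4.60, against 5.26 to 7.63 with a median of 6.02 in the others, a difference of -1.86 (SE 0.47, limma adjusted p = 0.268). CNN1, calponin, an actin-binding regulator of contraction, had 4.97, 4.55, 3.83 and 4.55 against 5.33 to 7.83, a difference of -1.84 (SE 0.48). In all 3 every Wagyu x Angus array was below every other array.

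TAGLN, transgelin, differed by -1.55 (SE 0.41), and MYLK, the kinase that starts contraction by acting on myosin light chain, by -1.24 (SE 0.32), again without overlap. LMOD1, which nucleates actin filaments, differed by -1.20 (SE 0.38) and SMTN, smoothelin, by -1.17 (SE 0.42), and for both the groups overlapped. Against Hereford 6 of the 11 passed in limma, beside 0.52% of all probes. They were ACTA2, MYH11, CNN1, TAGLN, MYLK and LMOD1. MYH11 was 5.70-fold lower (limma adjusted p = 0.0379) and ACTA2 3.78-fold lower (limma adjusted p = 0.0390). Both calls were lost in 9 of the 12 fits that left out an array and with slide as a fixed block, and that of ACTA2 also with the 2 breeds alone (limma adjusted p = 0.0504). For CNN1 the limma adjusted p against Hereford rose to as much as 0.135 when an array was left out. The median of the list was -1.73 against Hereford and -0.75 against Angus.

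Muscle carry-over and slide bear on this list as follows. It counts 4 genes whose probe is also a muscle probe, and with the muscle score in the fit its median was -1.19, with 9 at an unadjusted p under 0.05, a level that 16.3% of all probes reached in that fit. Without the Angus array of slide S08 the median was -1.34 and ACTA2 and MYH11 passed in limma, at adjusted p-values of 0.0498 and 0.0474. That array had the lowest level of the list among the Angus and Hereford arrays (4.59). Leaving it out widens the gap, so these calls are not further support. Within slide S08 the median of the list was -0.39, with 8 genes lower and 3 higher, and within slide S18 it was -1.50 with all 11 lower. The Hereford array of slide S18 had the highest level of the list (6.33). It also had the lowest share of probes above background among the IMF arrays (76.6%). Endothelial genes, another mark of blood vessels, had a median of -0.06 (-0.15 within slide S08 and 0.27 within slide S18) with 3 of 11 higher and 1 at an unadjusted p under 0.05. The part that a different content of vessels has in the smooth muscle result was not tested.

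**Figure D3:**
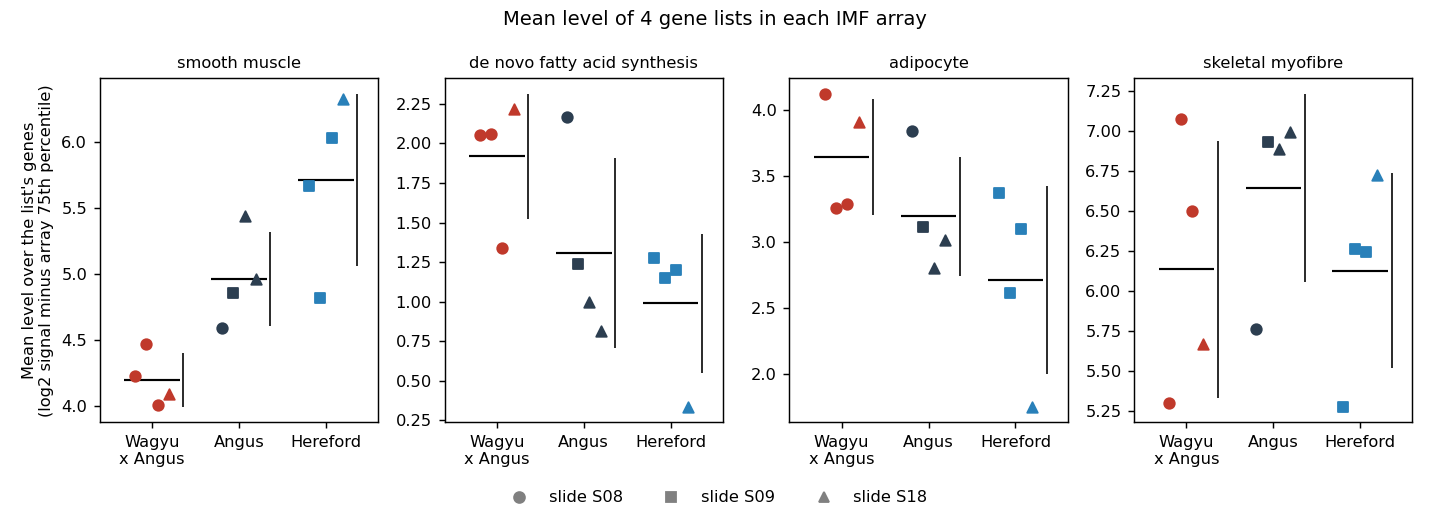
Mean log2 level (signal minus the array's 75th percentile) of 4 gene lists in each IMF array by breed. Points are arrays with the slide given by the marker, black lines are breed means and vertical bars are SD. The smooth muscle list is at 4.20 in Wagyu x Angus and 5.34 in the 8 others without overlap, and in the fatty acid synthesis and adipocyte lists the Angus array of slide S08 stands with the Wagyu x Angus arrays. In the adipocyte list a Hereford array of slide S09 (3.37) also lies above the lowest Wagyu x Angus array (3.26).

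Genes of de novo fatty acid synthesis stood on the higher side. Of 19 measured, 17 were higher in Wagyu x Angus, with a median of 0.81 (-0.27 to 1.42). An unadjusted limma p under 0.05 was reached by 9, all of them higher (4.21% of all probes were higher at that level), none passed after adjustment, and the groups overlapped for every one. SCD encodes the stearoyl-CoA desaturase that puts the double bond into oleic acid. It had log2 levels of 7.25, 7.49 and 6.47 on slide S08 and 7.53 on slide S18 in Wagyu x Angus, against 4.48 to 7.58 with a median of 5.78 in the others. The highest of those others was the Angus array of slide S08. The difference was 1.42 (SE 0.46, limma adjusted p = 0.302), or 2.67-fold. Without that array, whose absence widens the gap, SCD passed (limma adjusted p = 0.0344).

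FASN, fatty acid synthase, had 6.81, 6.61 and 5.90 on slide S08 and 7.05 on slide S18, against 3.62 to 7.27 with a median of 5.78, a difference of 0.90 (SE 0.51) with an unadjusted limma p of 0.105. ACACA, acetyl-CoA carboxylase, which makes malonyl-CoA, differed by 0.95 (SE 0.34). ACSS2, which activates acetate, the main carbon source for fat in ruminants, differed by 1.31 (SE 0.47). The elongases ELOVL5 and ELOVL6 differed by 1.22 (SE 0.40) and 0.86 (SE 0.38), and ME1 and PGD, which supply NADPH, by 0.81 (SE 0.30) and 0.83 (SE 0.32). These 6 had an unadjusted limma p under 0.05.

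The direction of this list differed between the slides. Within slide S08, where the Angus array is the only comparison, 2 of 19 genes were higher in Wagyu x Angus and the median was -0.51. Within slide S18, where the Wagyu x Angus array had less muscle signal than the 3 others, 17 of 19 were higher and the median was 1.64. With the muscle score in the fit the median over 12 arrays was 0.67. It was 0.61 against Angus and 0.92 against Hereford.

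Adipocyte markers followed the same course. Of 19 measured 17 were higher, with a median of 0.75 (-0.59 to 1.67), and 7 had an unadjusted limma p under 0.05, beside 48.24% higher and 11.5% at that level over all probes. LEP, leptin, the hormone that reports fat stores, had -0.16, -0.71 and -1.27 on slide S08 and 0.00 on slide S18 in Wagyu x Angus, against -3.46 to -0.32 with a median of -1.70 in the others. The difference was 1.25 (SE 0.46, limma adjusted p = 0.341), or 2.38-fold, and the groups overlapped. PCK1, which makes the glycerol backbone in fat cells, differed by 1.67 (SE 0.62), and PPARG, the main regulator of adipocyte formation, by 0.69 (SE 0.26). ADIPOQ, adiponectin, differed by 0.78 (SE 0.39), PLIN1, perilipin of the droplet coat, by 0.82 (SE 0.42) and FABP4, a fatty acid carrier, by 0.25 (SE 0.22).

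RETN, resistin, stood the other way, with a difference of -0.59 (SE 0.26) and an unadjusted limma p of 0.0384. With the muscle score in the fit the median of the adipocyte list was 0.58. Within slide S08 it was -0.22 and within slide S18 1.51. The mean level of the list was 3.64 ± 0.44 (SD, n = 4) in Wagyu x Angus and 2.95 ± 0.61 (SD, n = 8) in the others, which overlapped.

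Genes that assemble and release triacylglycerol were less one-sided. In triacylglycerol synthesis 9 of 16 were higher with a median of 0.12, but the median was -0.04 within slide S08 and -0.14 within slide S18. GPAM, which starts the pathway in mitochondria, differed by 1.05 (SE 0.40), DGAT2, which adds the last fatty acid, by 0.78 (SE 0.41) and AGPAT2 by 0.52 (SE 0.30), whereas LPIN1, a phosphatidate phosphatase, differed by -0.27 (SE 0.37). MBOAT1, a lysophospholipid acyltransferase, was the member that passed against Hereford, beside 0.52% of all probes. It was lower by a log2 difference of -1.34 (limma adjusted p = 0.0389). In lipolysis and droplet coat 13 of 17 were higher with a median of 0.45. CIDEC, which fuses droplets, differed by 0.89 (SE 0.39), the lipase LIPE by 0.78 (SE 0.43) and PNPLA2, which takes off the first fatty acid, by 0.45 (SE 0.23).

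Skeletal muscle genes stood slightly lower. Of 22 myofibre genes 21 were lower in Wagyu x Angus with a median of -0.30, but 9 were lower without the Wagyu x Angus array of slide S08 with the score of -1.41. In the fit to all 12 arrays the only one with an unadjusted limma p under 0.05 was PVALB, a calcium buffer of fast fibres, which was higher by 1.46 (SE 0.65). MB, myoglobin, had 8.03, 9.12 and 9.05 on slide S08 and 8.41 on slide S18, against 8.03 to 9.28 with a median of 8.92, a difference of -0.21 (SE 0.26). MYH7, the slow myosin, differed by -0.31, MYH2, a fast myosin, by -0.26 and the creatine kinase CKM by -0.16. The probes of 21 of these 22 genes are part of the muscle score. With the score in the fit, which takes out their shared level by construction, the median of the list was -0.04. It was 0.57 within slide S08 and -1.45 within slide S18, opposite in sign to the fatty acid synthesis, adipocyte and lipolysis lists on each of these slides.

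Other cell types gave few single genes at an unadjusted p under 0.05. Of 9 Schwann cell genes, markers of the cells that wrap nerves, 8 were higher with a median of 1.02 and 2 reached that level. These were MBP, myelin basic protein, which differed by 1.97 (SE 0.87), and S100B, a calcium-binding protein of glia, which differed by 1.02 (SE 0.41). The Schwann list had a median of -0.36 within slide S08 and 2.35 within slide S18.

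Of 21 collagen and matrix genes 16 were higher with a median of 0.14. In the fit with the muscle score 10 were higher, and the direction differed between the slides, with 1 higher within S08 (median -0.51) and 20 within S18 (0.97). COL4A2, a basement membrane chain, differed by 0.36 (SE 0.12) with the list's only unadjusted limma p under 0.05, while COL1A1 differed by -0.28 (SE 0.36), COL4A1 by 0.24 and SPARC by 0.27. In the lists that follow, the second number in parentheses counts genes at an unadjusted p under 0.05, a level that 11.5% of all probes reached. Macrophage genes were higher for 8 of 9 (median 0.59, 2), lymphocyte genes for 2 of 14 (-0.15, 2), preadipocyte and stromal genes for 9 of 15 (0.10, 1) and genes of tendon and perimysium for 3 of 8 (-0.61, 1). Fatty acid oxidation was higher for 15 of 20 (0.14, 4), fatty acid uptake for 8 of 14 (0.15, 2), adipogenic regulators for 9 of 14 (0.28, 4), adipokines for 10 of 12 (0.24, 5), and acute phase genes for 14 of 16 (0.55, 5). The macrophage and acute phase lists also differed in direction between the slides, where the comparison on slide S08 is the single Angus array. Within slide S08 0 of 9 macrophage genes (median -0.70) and 1 of 16 acute phase genes (-0.57) were higher, and within slide S18 9 (1.40) and 13 (1.40) were. The sign of the median also turned for the adipokines (-0.18 on S08 and 0.68 on S18), adipogenic regulators (-0.05 and 0.48), preadipocyte and stromal genes (-0.56 and 0.67), fatty acid oxidation (0.20 and -0.21), fatty acid uptake (0.04 and -0.08), lymphocyte genes (-0.27 and 0.15) and genes of tendon and perimysium (0.03 and -1.21). None of the 25 lists held a gene that passed after adjustment in limma.

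**Figure D4:**
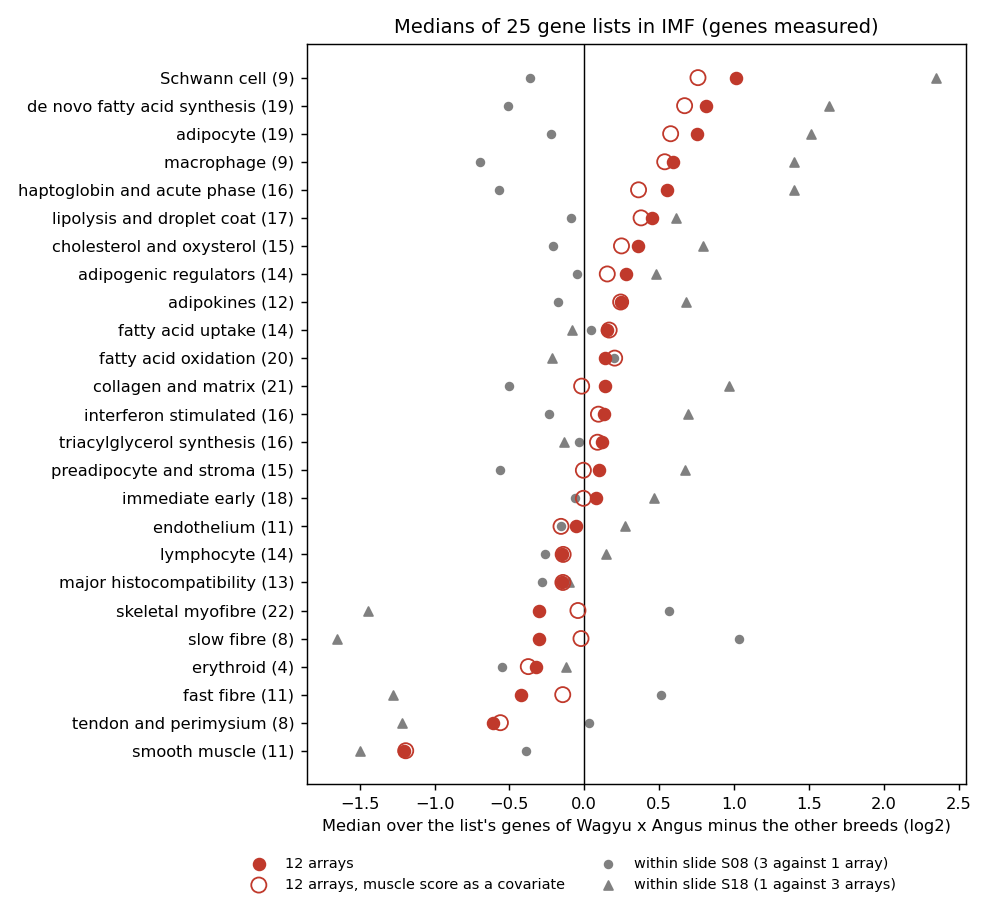
Median over the genes of each of 25 lists of the log2 difference between Wagyu x Angus and the other breeds in IMF, with the number of genes measured. Filled circles are the fit to 12 arrays, open circles the fit with the muscle score, and grey markers the differences within slides S08 and S18. The smooth muscle list is lowest at -1.20 and keeps its sign on both slides, whereas the Schwann cell, fatty acid synthesis, adipocyte, macrophage, acute phase, collagen and skeletal myofibre lists turn, among others.

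The same contrast was read in the 4 other fat depots, which are SC, intermuscular, kidney and omental fat, with 16 Wagyu x Angus and 32 other arrays. These depots were dissected from the same steers, so the 48 arrays are not 48 animals. The labels do not tie them to steers, the fit takes them as independent, and its p-values for the other depots are too small. Their mean difference passed in limma for 396 probes (1.16%), 169 higher and 227 lower. No probe (0%) passed for a difference between IMF and those depots, with 2684 at an unadjusted p under 0.05 and a smallest limma adjusted p of 0.141. This contrast lies within steers, and a fit that leaves out the pairing can make its p-values too large. The lack of calls therefore does not show that the depots differ alike. CELA1 differed by -0.21 (SE 0.17) in the other depots and POSTN by -0.34 (SE 0.25), both short of the threshold, and the gap between IMF and those depots was -1.15 for CELA1 (limma adjusted p = 0.386). Among the 24 genes TNFRSF6B was the one that passed in the other depots, higher by 0.91 (SE 0.17, limma adjusted p = 0.00202) beside 0.87 in IMF. In LD of pasture-fed steers, 8 Wagyu x Angus against 16 other arrays, the CELA1 probe differed by 0.04 (limma adjusted p = 0.935).

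The smooth muscle, fatty acid synthesis and adipocyte lists had medians closer to 0 in the other depots, whereas the skeletal myofibre list had a median of 0.76 there, opposite in sign to IMF. The smooth muscle list had a median of -0.10, ACTA2 differed by -0.28 and MYH11 by -0.52. The fatty acid synthesis list had a median of 0.19 and the adipocyte list 0.11. ACTA2 in LD differed by -0.28 (limma adjusted p = 0.337). BOLA-DQA5, a class II histocompatibility gene, was chosen after its values were seen because it passed in the other depots, with a difference of -3.35 (limma adjusted p = 0.00886). In IMF it had -9.13, -5.92 and -7.62 on slide S08 and -6.55 on slide S18, against -8.37 to -0.44 with a median of -4.79. The IMF difference was -3.01 (SE 1.33, limma adjusted p = 0.414), and the probe was well above background on 1 of the 4 Wagyu x Angus and 6 of the 8 other arrays. The 13 measured histocompatibility genes had a median of -0.15 in IMF and -0.06 in the other depots. The fatty acid uptake and fast fibre lists also held 1 gene each that passed in the other depots, beside 1.16% of all probes.

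**Figure D5:**
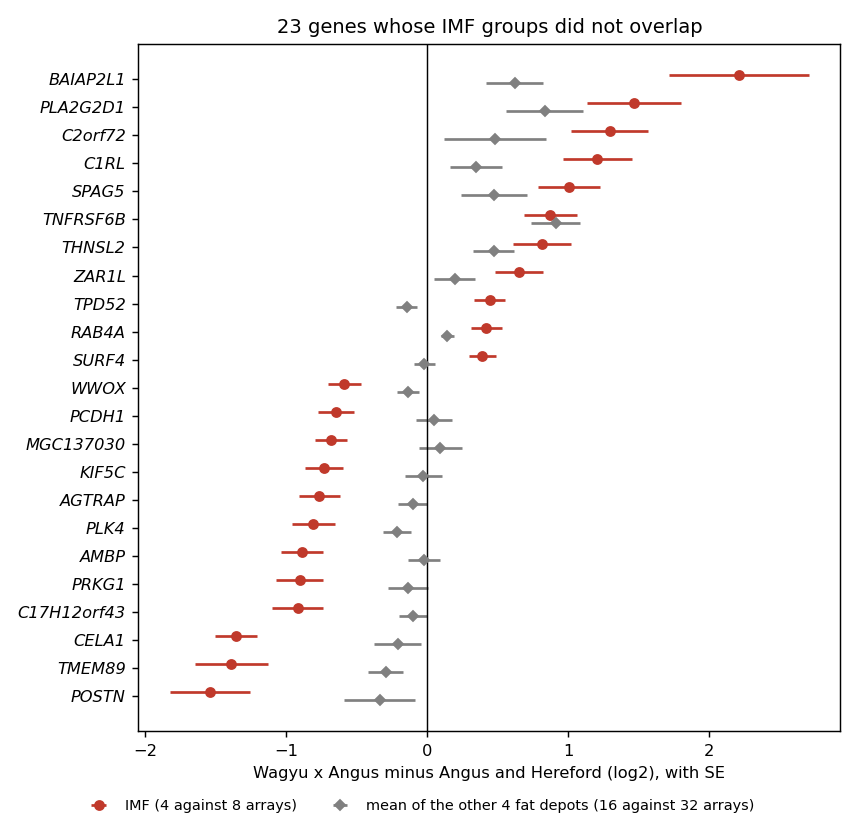
Log2 difference between Wagyu x Angus and the other breeds, with SE, of 23 of the 24 genes named by the rule, whose IMF groups did not overlap. Circles are IMF (4 against 8 arrays) and diamonds the mean of the 4 other fat depots (16 against 32 arrays). The genes were chosen on the IMF values, and TNFRSF6B is the one whose 2 values nearly meet (0.87 and 0.91).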

How the data were processed

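The deposited scanner tables hold one-colour Agilent Feature Extraction intensity values, background-subtracted by the authors' scanner software. The deposited series table holds log2 values that equal the log2 of median signal minus median background, floored at 1, within 0.001. The mixed-model normalisation described in the methods was not found in them. Here gProcessedSignal was scaled to each array's 75th percentile in log2, control and outlier spots were dropped (1747 probe values of IMF), and the 34227 probes of the series table were tested with limma 3.58.1 in R 4.3.3 with Benjamini-Hochberg adjustment. The number of arrays limits the precision. The main fit took the 12 IMF arrays with 2 groups. A second fit took 3 breeds, and another took 60 fat arrays with breed and depot. Fold means 2 raised to the log2 difference, and levels of different probes are not comparable. Annotation from RefSeq accessions and the study's lists named 21343 probes (62.4%, 10598 genes). For a gene with several probes, the probe with the highest mean level stood for it in the lists. Named genes were the 12 highest and 12 lowest that passed without overlap, with places filled by the smallest p among genes without overlap, plus lead genes of the lists; a few genes that the rule names are not reported here. Members and lists were chosen with earlier results of these data known. The fit was tested on simulated data. Alternatives covered scaling, background correction, filters, slide, the replicate block, the muscle score and each array left out.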

Additional observations from a re-analysis of the deposited data

Results flagged for a closer look

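Single arrays that stood apart were looked for in 151 groups of values from 76 genes and scores, and 4 were found, where chance alone would flag about 1 group in 20. C1RL had a log2 level of -2.94 on the second Wagyu x Angus array of slide S08, with the other 3 between -2.53 and -2.44. The Angus array of slide S08 gave the other 3. Among the 8 Angus and Hereford arrays it was lowest for AMBP (-2.82, next -2.32) and for WWOX (-4.10, next -3.78), and highest for ACSS2 (3.14, next 1.44). No cause was tested.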

How the results depend on the processing

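The count of 1 probe between Wagyu x Angus and the other breeds held under quantile normalisation, mean centring, all probes, the filter on dim probes, leaving out muscle probes, slide as a random block and the muscle score. It was 2 in the 3-breed fit, where POSTN joined CELA1 (limma adjusted p = 0.0456), and 92 (16 higher) with the spread of all 60 fat arrays. It was 0 with normexp correction (3926 probes at an unadjusted p under 0.05, smallest adjusted p 0.288), with the deposited log2 values as they are (4676, 0.324) or scaled to the 75th percentile (3961, 0.162), with the methods' equal-variance test (3756, 0.0732) and with slide as a fixed block (792 at an unadjusted p under 0.05). The deposited values as they are shift the median of all probes by 0.13. The replicate number in the labels is the position on the slide and recurs within a breed, so it does not pair arrays. With the replicate block the count was 0 against the other breeds (4149, 0.271), 0 against Angus and 0 against Hereford (5053, 0.0557), so that CELA1 (limma adjusted p = 0.271) and, against Hereford, POSTN (0.0798) did not pass. Deviations of arrays with the same number had a median correlation of 0.04 over 10 pairs, and with different numbers -0.03 over 38.

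Leaving out each array in turn, the count ran from 0 to 699. Naming arrays by their position on the slide, it was 0 without Wagyu x Angus array 2, 3 or 4 of slide S08, Hereford array 1 or 3 of slide S09, Angus array 4 of slide S09 or Angus array 1 of slide S18, and 6 without the Wagyu x Angus array of slide S18. Against Angus it ran from 0 to 3, and against Hereford from 1 to 681. The latter count was 294 under quantile normalisation, 277 under mean centring, 1895 (930 higher) with the muscle score and 0 with slide as a fixed block. Without Angus array 1 of slide S08 it was 546, without Angus arrays 1 and 2 of slide S18 506 and 43, without Angus array 4 of slide S09 35, without Hereford array 3 of slide S09 9 and without the Hereford array of slide S18 18. The difference in muscle score ran from -0.52 to 0.02, the latter without Wagyu x Angus array 2 of slide S08, and was -0.29 with probes over 8-fold.

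CELA1 was lower in every alternative, by as little as a log2 difference of -0.45 with normexp, but did not pass in 7 of 12 fits that left out an array (limma adjusted p 0.0545 to 0.201). The signs of weak differences turned. COL3A1 was -0.003 and became 0.069 under quantile normalisation, 0.032 with normexp, 0.12 with deposited values, 0.17 with slide as a fixed block, 0.0091 with the replicate block and -0.20 to 0.25 without single arrays. With the muscle score, of which their own probes are part, CKM was 0.15, MYH2 0.012 and MYH7 0.00022, so that fit is no separate test of them. Without single arrays CKM ran from -0.53 to 0.13, MYH2 from -0.60 to 0.11, MYH7 from -0.79 to 0.10, MB from -0.36 to 0.0012 and COL1A1 from -0.52 to 0.073. No cause was tested.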
